A study of Mus musculus with 34 samples.

Results

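Livers in which the transcriptional repressor gene Bcl6 had been targeted were compared directly with livers in which the lipogenic transcription factor gene Srebf1 had been targeted. The comparison used 10 of the 34 livers of the series, 5 labelled Bcl6 KO and 5 labelled Srebf1 KO, and no control liver entered it. A gene was tested if its FPKM reached 1 in 5 or more of the 10 libraries, which gave 16720 of 35976 gene symbols. FPKM counts fragments per kilobase of a transcript relative to library size. All mice of both groups were C57BL/6 animals, homozygous for TetO-Cas9, a Cas9 gene under a tetracycline-responsive promoter, and for Rosa-rtTA, the transactivator that switches that promoter on, expressed from the broadly active Rosa locus. They were given an adeno-associated virus (AAV) with a guide RNA against Bcl6 or against Srebf1 and ate a Western diet, rich in fat and sugar, for 3 months. The sources used here do not give the guide positions, the share of hepatocytes edited, or the age and sex of the mice. Total RNA of whole liver was sequenced, 1 library per liver. In such bulk samples, fewer cells of a type and less RNA per cell cannot be told apart.

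BCL6 is a zinc finger repressor that binds DNA sites shared with STAT5, the transcription factor activated by growth hormone and prolactin receptors. In mouse liver the sex-specific rhythm of growth hormone secretion sets which P450, sulfotransferase and urinary protein genes are expressed, and BCL6 is known there as a male-biased repressor of female-biased genes and of genes of fatty acid use. SREBP-1, the product of Srebf1, is known as the activator of fatty acid and triglyceride synthesis genes, while its relative SREBP-2 acts mainly on cholesterol synthesis and uptake. The escort protein SCAP carries both out of the endoplasmic reticulum when sterols are low.

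The 2 targeted genes were examined first. Bcl6 mRNA (chromosome 16, 23965052 to 23988852, minus strand, GRCm38, GENCODE M21, as for all gene positions here) was at 46.7, 60.4, 52.0, 62.5 and 100.1 FPKM in Bcl6 KO replicates 1 to 5. In the 5 Srebf1 KO livers it was at 106, 35.2, 101, 79.8 and 41.6 FPKM. The groups overlapped, and the difference did not pass the test (log2 difference, Bcl6 KO minus Srebf1 KO, -0.09, SE 0.32, limma adjusted p = 0.903, and 0.08 without Srebf1 KO replicate 1). Transcription of an edited gene can continue, so the Bcl6 label is not checked by this mRNA level.

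Srebf1 mRNA (chromosome 11, 60199089 to 60222581, minus strand) was at 1502, 898, 1238, 1983 and 1531 FPKM in the Bcl6 KO livers and at 1908, 516, 499, 527 and 632 FPKM in the Srebf1 KO livers. Srebf1 KO replicates 2 to 5 were thus below every Bcl6 KO liver, while the library labelled Srebf1 KO replicate 1 lay within the range of the 6 control livers of the series (1095 to 2177 FPKM) and above 4 of the 5 Bcl6 KO livers. Over all 10 livers the difference did not pass (log2 difference 0.99, SE 0.34, limma adjusted p = 0.0936). Without that library it did (log2 difference 1.35, SE 0.19, limma adjusted p = 0.00158). The library labelled Srebf1 KO replicate 1 thus differed from the rest of its group in Srebf1 mRNA. As for Bcl6, transcription of an edited gene can continue, so this level does not check its label. Below, counts of list members called are given with and without this library, and so are the differences printed with an SE. There, "without that library" always refers to the library labelled Srebf1 KO replicate 1. Of 107 named genes that passed the test, 106 also passed without that library. Most of these were named for a small adjusted p or a large difference. Over all genes, 1358 of 1703 calls held without it.

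The FPKM steps implied a scale of 2143524 to 2860382 reads per library. FPKM values summed to 2966071 to 3085772 per library. For transcripts of usual length this is too much for that scale to be the number of counted reads. Depth is therefore not known. The median SE of a log2 difference was 0.223. All 10 livers expressed Y-linked genes (Ddx3y at 199.8 to 280.2 FPKM) and almost no Xist, the X-inactivation RNA of female cells (at most 1.95 FPKM). None of 8 sex chromosome genes tested passed the threshold by limma with or without that library (1 at an unadjusted p under 0.05). Hepatocyte markers dominated every library, and markers of pancreas, kidney, muscle and fat were at or near 0 (Prss2, Cpa1, Ckm and Umod listed at 0, Adipoq at most 0.623 FPKM). The first principal component took 30.8% of the variance and separated the groups, with Bcl6 KO at -54.81 to -23.45 and Srebf1 KO at 32.25 to 52.88. Bcl6 KO replicate 5 was the library of its group nearest to Srebf1 KO, and the library labelled Srebf1 KO replicate 1, at 36.91, lay among its group.

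In all, 838 genes were higher and 865 lower in Bcl6 KO than in Srebf1 KO, together 10.2% of the genes tested (5.01% higher and 5.17% lower, limma adjusted p under 0.05). Of these, 403 and 220 differed at least 2-fold (401 and 217 without that library). With an FPKM of 1 required in all 10 libraries, which removes genes that passed the filter through 1 group only, they numbered 260 and 190. With the library labelled Srebf1 KO replicate 1 left out, the counts were 758 and 758 (9.07% in all, 4.53% higher and 4.53% lower), and 1358 genes were called both times. The 5 values of Bcl6 KO lay all above those of Srebf1 KO for 4.77% of genes and all below for 4.92%. Higher and lower always describe Bcl6 KO relative to Srebf1 KO, and differences are on the log2(FPKM + 1) scale, which understates those of low genes. A direct comparison of 2 knockouts does not say which of them had moved, so the range of the 6 controls is given beside the differences printed with an SE, as a description.

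**Figure D1:**
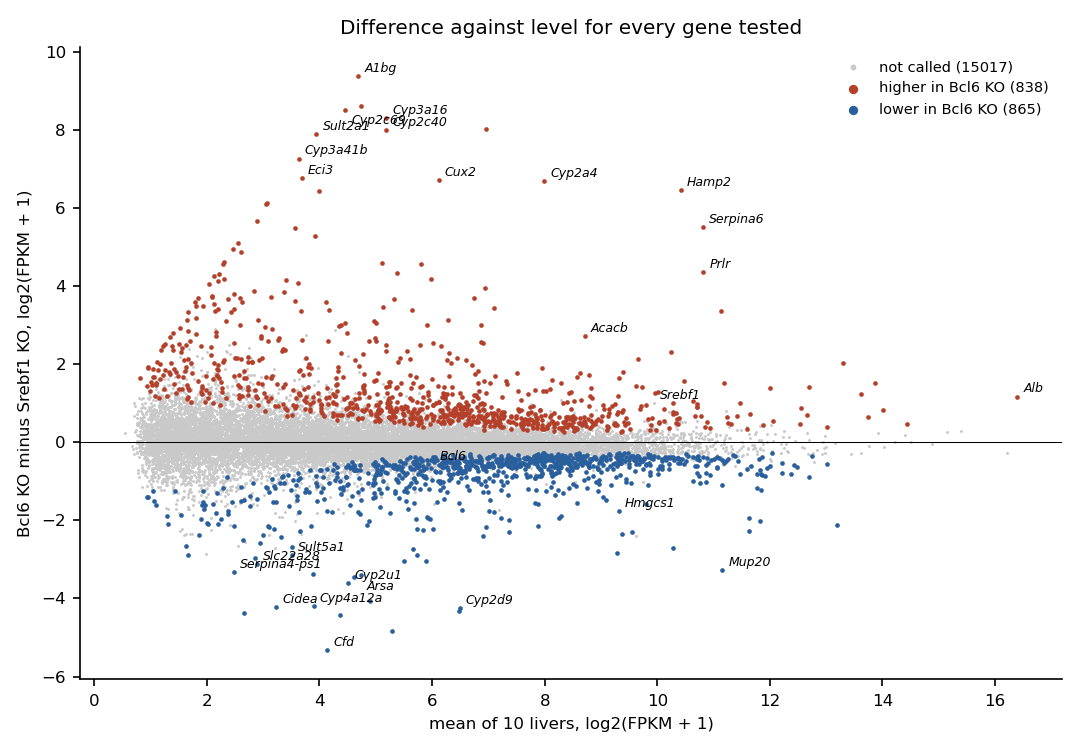
Difference between the groups (Bcl6 KO minus Srebf1 KO, log2(FPKM + 1) scale, vertical axis) against the mean level of each of 16720 genes over 10 livers (horizontal axis). Red points are the 838 genes higher and blue points the 865 genes lower in Bcl6 KO, grey points did not pass, and the labelled genes are 9 of the highest and 10 of the lowest of the naming rule with 8 others of the text, among which Bcl6 and Srebf1 did not pass.

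**Figure D2:**
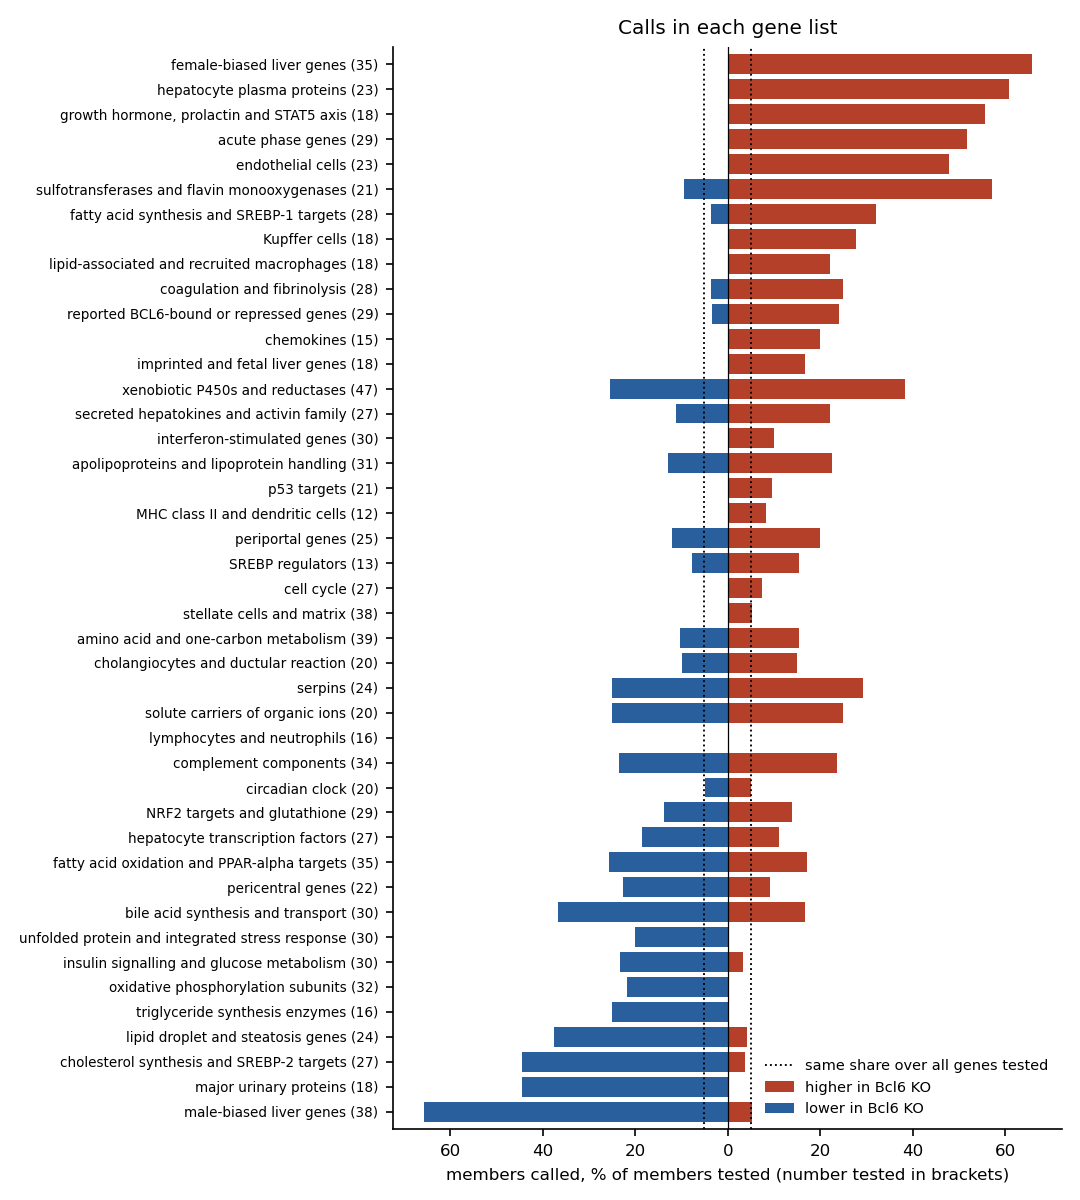
Share of the members tested that were called higher (red, right) or lower (blue, left) in Bcl6 KO for 43 gene lists, with the number of members tested in brackets. Dotted lines mark the shares over all genes tested (5.01% higher, 5.17% lower), and the bars reach furthest for female-biased genes on the right and male-biased genes on the left.

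Female-biased liver genes set the groups apart most widely. Of 35 tested, 23 were higher in Bcl6 KO and none lower (0 at an unadjusted p under 0.05), with a median log2 difference of 2.27 against -0.017 over all genes. With the library labelled Srebf1 KO replicate 1 left out, the count was again 23 and the median 2.06. It was 14 when an FPKM of 1 was required in all 10 libraries, a filter that removes genes listed at 0 in Srebf1 KO. Of the 10 highest differences of the naming rule, 8 were in this list. The count of 23, the median and the 10 highest include genes that passed the filter through Bcl6 KO alone, such as A1bg and Cyp3a41b. The calls of such genes are no separate support.

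Several of these transcripts were listed at 0 in all 5 Srebf1 KO livers. A1bg, which encodes a plasma glycoprotein (chromosome 15, 60896859 to 60923012, minus strand), was at 939.6, 477, 632, 882 and 522 FPKM in the Bcl6 KO livers, and was listed at 0 in the control livers as well. The steroid and bile acid sulfotransferase gene Sult2a1 was at 314, 174, 131, 469 and 219.7 FPKM, and the P450 gene Cyp3a41b at 179, 146, 121, 178 and 146 FPKM, with both again listed at 0 in all Srebf1 KO and control livers. Among these 16 livers, all signal for these 3 genes was thus in Bcl6 KO. They passed the filter through Bcl6 KO alone, so no p-value is given for them.

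Other P450 genes were near 0 in Srebf1 KO and abundant in Bcl6 KO. Cyp2a4, a testosterone hydroxylase, was at 2883, 2131, 2517, 3145 and 2411 FPKM against 7.59, 37.4, 38.6, 41.3 and 16.9 FPKM, a difference of 6.69 (SE 0.38, limma adjusted p = 5.59e-07, and 6.31 without that library, with the controls at 24.3 to 78.9 FPKM). The ranges of Cyp3a16 were 478 to 970.3 against 0.55 to 1.82 FPKM, those of Cyp2c40 432 to 775 against 0.259 to 2.69 FPKM, and those of Cyp2c69 335 to 685 against 0 to 0.596 FPKM. In the controls these 3 genes did not exceed 10.1 FPKM, so the Srebf1 KO livers stood at or below the control levels and the Bcl6 KO livers far above them. Near-identical members of the Cyp2c, Cyp3a and Sult2a families may share reads, and the split within a family is uncertain.

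Cux2 encodes a transcription factor known as a female-biased regulator of liver genes. It was at 1169.7, 742, 835, 607 and 401 FPKM in Bcl6 KO and 6.99, 3.56, 13.6, 4.97 and 3.58 FPKM in Srebf1 KO (log2 difference 6.70, SE 0.34, limma adjusted p = 2.27e-07, and 6.76 without that library, with the controls at 3.18 to 9.19 FPKM). Eci3, a peroxisomal enoyl-CoA isomerase, was at 76.2 to 227 FPKM in Bcl6 KO and was listed at 0 in 4 Srebf1 KO livers, with 1.88 FPKM in replicate 3. Bcl6 KO replicate 5 had the lowest Cux2 of its group, and it was still far above every Srebf1 KO liver.

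Male-biased genes moved the other way. Of 38 tested, 25 were lower in Bcl6 KO (23 without the library labelled Srebf1 KO replicate 1), with a median log2 difference of -1.91 (-1.81 without it). The 2 higher members, named after their values were seen, were Gna14, a G protein subunit (3.63 to 7.71 against 0.69 to 2.91 FPKM, limma adjusted p = 0.0358), and Igfbp2, a binding protein of insulin-like growth factors (195 to 531 against 94.7 to 321 FPKM, limma adjusted p = 0.0488). At least 1 of these 2 calls ended when Bcl6 KO replicate 1, 2, 3 or 4 or Srebf1 KO replicate 2, 3, 4 or 5 was left out, leaving 0 or 1 higher member, as did 7 other settings, among them a pseudocount of 0.1, both other filters and median scaling.

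The steroid hydroxylase gene Cyp2d9 was at 6.42, 36.9, 11.4, 6.7 and 138 FPKM in Bcl6 KO and at 514, 333, 369.8, 329 and 427 FPKM in Srebf1 KO (log2 difference -4.24, SE 0.67, limma adjusted p = 0.0021, and -4.14 without that library, with the controls at 43.7 to 429 FPKM). Mup20, a pheromone-binding urinary protein also called darcin, was at 186, 1670.3, 480.3, 339 and 4042 against 6179, 8717, 6219.6, 5635 and 9517 FPKM (-3.28, SE 0.67, limma adjusted p = 0.00901, and -3.33 without that library, with the controls at 5399 to 22085 FPKM). Cyp4a12a, an arachidonic acid hydroxylase, was at 0, 14.4, 0.144, 0.49 and 18.7 against 205, 32.2, 27.1, 60.9 and 86.8 FPKM (limma adjusted p = 0.0116, and 0.0275 without that library), with 40.1 to 193 FPKM in the controls. Only Bcl6 KO replicates 2 and 5 reached 1 FPKM, so Cyp4a12a passed the filter through Srebf1 KO and its p-values are a description. In all 3 genes the groups did not overlap, and Bcl6 KO replicate 5 was the highest of its group. Sult5a1, a sulfotransferase (0 to 11.1 against 12.8 to 54.9 FPKM), and the P450 gene Cyp2f2 (120.1 to 289.6 against 516 to 749 FPKM) showed the same order.

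Cyp2u1, a fatty acid hydroxylase, was above the control range in every Srebf1 KO liver, though only just in replicate 3. In Bcl6 KO it was below that range in replicates 1 to 4 and within that range in replicate 5. It was at 3.09, 4.77, 5.38, 4.68 and 12.9 FPKM in Bcl6 KO and 106, 77.4, 61.2, 73.2 and 82.9 FPKM in Srebf1 KO (-3.61, SE 0.29, limma adjusted p = 1.06e-05, and -3.51 without that library), and at 8.35 to 60.4 FPKM in the controls, below all Srebf1 KO livers. Arsa, the lysosomal sulfatase that clears sulfatide (chromosome 15, 89472476 to 89477425, minus strand), was at 2.04 to 20.9 against 67.3 to 102 FPKM (-3.41, limma adjusted p = 0.00122), with 63.6 to 80.1 FPKM in the controls. An antisense transcript, C230037L18Rik, overlaps Arsa, and the strand setting of the counting is not given in the sources used here, so reads of the pair may not be separated. Slc22a28, an organic anion transporter gene (0 to 5.4 against 12.5 to 43.1 FPKM), and the serpin pseudogene Serpina4-ps1 (0 to 6.91 against 13.4 to 22.4 FPKM) completed the low end, and both belong to families of near-identical genes.

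Of 18 major urinary protein genes, 8 were lower in Bcl6 KO and none higher, also at an unadjusted p under 0.05 (median log2 difference -1.91). This count depended on single livers: it was 13 without Bcl6 KO replicate 5 and 5 without Bcl6 KO replicate 1 or 3, Srebf1 KO replicate 2 or the library labelled Srebf1 KO replicate 1. Mup3 was at 4454, 4698, 2349, 4096 and 8899 FPKM in Bcl6 KO and at 28337, 21604, 15971, 12489 and 22134 FPKM in Srebf1 KO (-2.11, SE 0.31, limma adjusted p = 0.00123, and -1.97 without that library, with the controls at 1929 to 17845 FPKM). Mup1 was at 1.23, 5.16, 1.18, 3.99 and 135 FPKM against 556, 153, 234, 80.1 and 243 FPKM (limma adjusted p = 0.00843, and 0.0208 without that library), with 1.46 to 114 FPKM in the controls. Replicate 5 of Bcl6 KO lay inside the Srebf1 KO range for Mup1 and outside it for Mup3. Mup genes are near-identical copies in 1 cluster, so their separate values are uncertain.

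**Figure D3:**
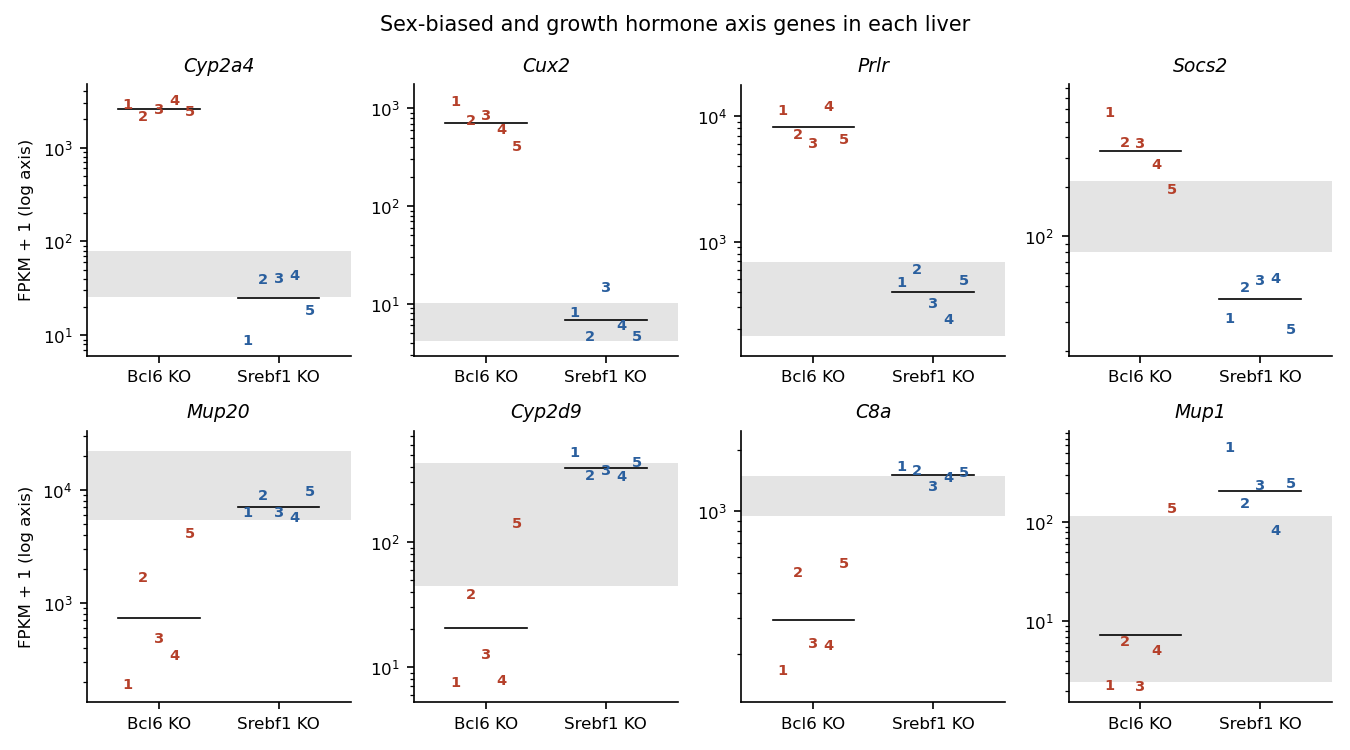
FPKM + 1 (log axis) of 8 sex-biased and growth hormone axis genes in each Bcl6 KO liver (red digits) and Srebf1 KO liver (blue digits), where a digit is the replicate number, the black line is the geometric mean of 5 livers and the grey band is the range of 6 control livers. In the upper row the Bcl6 KO livers lie above the Srebf1 KO livers, and in the lower row below, with Bcl6 KO replicate 5 nearest to Srebf1 KO and inside its range for Mup1.

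Receptor and feedback genes of the growth hormone, prolactin and STAT5 axis were higher in Bcl6 KO. Of 18 genes tested, 10 were higher, Cux2 among them, and none lower (1 at an unadjusted p under 0.05), and 9 were higher when the library labelled Srebf1 KO replicate 1 was left out. The number was 6 without Bcl6 KO replicate 1 or 2 or Srebf1 KO replicate 2 or 5. Prlr, the prolactin receptor (chromosome 15, 10177238 to 10349180, plus strand), was at 10920, 7089, 5972, 11930 and 6443 FPKM in Bcl6 KO and 469, 599, 317, 236 and 484 FPKM in Srebf1 KO, a difference of 4.34 (SE 0.26, limma adjusted p = 1.15e-06, and 4.40 without that library, with the controls at 175 to 687 FPKM). Ghr, the growth hormone receptor, was at 4835, 3758, 3125, 5826 and 2891 against 1685, 1506, 1174, 1184 and 1452 FPKM (1.51, SE 0.19, limma adjusted p = 0.000367, and 1.58 without that library, with the controls at 763 to 1343 FPKM).

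Socs2, which encodes a feedback inhibitor of growth hormone signalling and is itself a STAT5 target, was at 559, 369.8, 361, 272 and 190.4 against 30.6, 47.4, 52.7, 54.3 and 25.8 FPKM (3.00, SE 0.28, limma adjusted p = 4.68e-05, and 2.90 without that library). The controls stood at 78.9 to 216 FPKM, between the groups except for Bcl6 KO replicate 5, which lay inside their range. The kinase gene Jak2 and the STAT5 genes did not pass. Jak2 was at 117 to 175 against 140.4 to 169.6 FPKM, Stat5a at 59.7 to 68.3 against 43.2 to 99.1, and Stat5b at 119 to 138 against 125 to 161. Igf1, the growth factor made under growth hormone, was at 4273 to 6189.9 against 3422 to 6126 FPKM (limma adjusted p = 0.305).

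Promoters of 3 genes of these groups are shown because BCL6 and STAT5 recognise the same paired half-sites, searched here as TTCNNNGAA on both strands (the letters read the same on either) in RefSeq windows of 300 bases, 250 before the start of transcription and 50 after it (GRCm38.p6). Printed are the 250 bases before the start, 5′ to 3′ on the strand of the gene, with the matched letters in capitals.
A1bg, chr15:60921271-60921520, minus strand: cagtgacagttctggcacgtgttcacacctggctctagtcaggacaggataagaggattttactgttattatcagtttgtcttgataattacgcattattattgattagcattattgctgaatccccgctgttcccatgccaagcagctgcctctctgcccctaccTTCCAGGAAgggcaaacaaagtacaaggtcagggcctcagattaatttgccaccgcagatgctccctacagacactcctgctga
Prlr, chr15:10223656-10223905, plus strand: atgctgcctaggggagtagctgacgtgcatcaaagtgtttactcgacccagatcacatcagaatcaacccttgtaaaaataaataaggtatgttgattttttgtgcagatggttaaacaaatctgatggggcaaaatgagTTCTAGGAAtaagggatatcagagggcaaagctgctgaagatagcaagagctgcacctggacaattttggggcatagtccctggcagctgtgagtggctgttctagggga
C8a, chr4:104876399-104876648, minus strand: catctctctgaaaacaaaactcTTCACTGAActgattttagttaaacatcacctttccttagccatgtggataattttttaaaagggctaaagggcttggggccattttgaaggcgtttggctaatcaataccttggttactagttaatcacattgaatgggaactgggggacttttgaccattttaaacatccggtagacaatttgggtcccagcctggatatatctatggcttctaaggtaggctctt
The matched letters begin 84 bases before the start in A1bg, 110 in Prlr (the second of 3 starts listed for the gene) and 228 in C8a. The RefSeq start used for A1bg lies inside the GENCODE gene given above. C8a, a subunit of the membrane attack complex and a male-biased gene, was lower in Bcl6 KO (165, 498, 222, 218 and 548 against 1647, 1581, 1317, 1449.9 and 1537 FPKM, -2.35, SE 0.29, limma adjusted p = 0.000387, and -2.32 without that library, with the controls at 943 to 1485 FPKM), so the letters occur in a gene of each direction. The motif was found in 8.3% of 32851 windows and in the windows of 8.81% of the 12103 genes tested that had one. Among called genes it was in 8.67% of 600 higher and 7.73% of 660 lower genes with a window, close to the share over all genes tested. Among female-biased genes it was in 6 of 28, and among male-biased genes in 4 of 29, of which Bcl6 itself was 1. A match describes letters only and is not a binding site.

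Fatty acid synthesis and SREBP-1 target genes were higher in Bcl6 KO in 9 of 28 cases and lower in 1, with a median log2 difference of 0.37. With the library labelled Srebf1 KO replicate 1 left out, the counts were 8 and 0 and the median 0.41. The genes that differed most were those of polyunsaturated fatty acid synthesis, of malonyl-CoA at the mitochondrion and of patatin-like lipases. The classical enzymes of palmitate and oleate synthesis did not pass.

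Acacb, the mitochondrial acetyl-CoA carboxylase whose product inhibits fatty acid import (chromosome 5, 114146535 to 114250761, plus strand), was at 1174, 969, 965, 1188 and 1086 FPKM in Bcl6 KO and 271, 139, 123, 159 and 156 FPKM in Srebf1 KO (2.71, SE 0.18, limma adjusted p = 2.3e-06, and 2.89 without that library). The delta-5 desaturase Fads1 was at 2875, 2622, 1989.6, 3582 and 2547 against 679.8, 591, 397, 514 and 579.5 FPKM (2.30, SE 0.17, limma adjusted p = 4.96e-06, and 2.38 without that library). Its partner Fads2, named after its values were seen, was at 1906 to 3451 against 649 to 1186 FPKM (1.56, limma adjusted p = 0.000349). For these 3 genes the controls lay at 410.1 to 933, 886 to 1109.8 and 1127 to 1493 FPKM. Every Bcl6 KO liver was above and every Srebf1 KO liver below the control range, except that the library labelled Srebf1 KO replicate 1, at 1186 FPKM, was inside it for Fads2.

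Pnpla3, a lipid droplet lipase known for its link to fatty liver, was at 263, 297, 89.8, 569 and 352 against 21.1, 11.3, 13.1, 3.96 and 9.66 FPKM (4.55, SE 0.47, limma adjusted p = 8.65e-05, and 4.79 without that library, with the controls at 21.7 to 105 FPKM). Its relative Pnpla5 was at 43.2, 47.6, 23.6, 71.5 and 44.2 against 3.42, 1.31, 0.853, 0.473 and 2.52 FPKM (4.15, SE 0.35, limma adjusted p = 1.85e-05, and 4.36 without that library, with the controls at 6.68 to 23.2 FPKM). For Pnpla3, Bcl6 KO replicate 3 lay inside the control range and the other 4 above it. In Acacb, Fads1, Pnpla3 and Pnpla5 the library labelled Srebf1 KO replicate 1 was the highest of its group and yet below every Bcl6 KO liver. For these 4 genes it thus sided with its group, while for Srebf1 mRNA it did not.

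Fasn, the fatty acid synthase, was at 377, 346, 287, 868 and 904 FPKM in Bcl6 KO and 338, 400.1, 396, 405 and 396 FPKM in Srebf1 KO (0.35, limma adjusted p = 0.512). The Bcl6 KO livers varied widely, with replicates 4 and 5 above the others, and the groups overlapped. Scd1, the delta-9 desaturase, was at 38743 to 57201 against 34140 to 42282 FPKM (0.30, limma adjusted p = 0.199), Acaca, the cytosolic carboxylase, at 495 to 709.7 against 420.1 to 589, and Acly, the citrate lyase, at 175 to 638 against 257 to 403. The controls were at 436 to 1305.5 FPKM for Fasn and 48521 to 88565 for Scd1, and every Srebf1 KO liver lay below these ranges. So did Bcl6 KO replicates 1 to 3 for Fasn and 1 and 2 for Scd1. The controls of Acaca were at 578 to 1144 FPKM, above Bcl6 KO replicates 1 to 3 and Srebf1 KO replicates 1, 2 and 5. For Acly they were at 245 to 1011 FPKM, above Bcl6 KO replicate 3 only. Differences from the controls were not tested. The 1 lower member, Aacs, which feeds acetoacetate into lipid synthesis and was named after its values were seen, was at 18.5 to 65.3 against 55.1 to 88.8 FPKM (-1.02, limma adjusted p = 0.0328). It lost its call without the library labelled Srebf1 KO replicate 1 (0.0697) and also without Srebf1 KO replicate 2, 3 or 4 or Bcl6 KO replicate 1 or 2 (adjusted p 0.0638 to 0.0688), whereas without Bcl6 KO replicate 4 there were 2 lower members.

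Cholesterol synthesis and SREBP-2 target genes ran opposite to the SREBP-1 targets. Of 27 tested, 12 were lower in Bcl6 KO and 1 higher, with a median log2 difference of -0.54. With the library labelled Srebf1 KO replicate 1 left out, the counts were 15 and 1 and the median -0.71. For the mean over this list that library lay within the Bcl6 KO range and not with the other 4 of its group.

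Hmgcs1, the HMG-CoA synthase at the entry of the pathway, was at 353, 445, 278, 282 and 398 FPKM in Bcl6 KO and 403, 2080, 859, 1736 and 1732 FPKM in Srebf1 KO. Srebf1 KO replicates 2 to 5 thus lay at 859 or more, above all controls (308 to 577 FPKM), and the library labelled replicate 1 lay among the controls. The difference was -1.75 (limma adjusted p = 0.0125) with that library and -2.14 (0.000361) without it. Sqle, squalene epoxidase, was at 9.3, 21.5, 8.65, 11.1 and 17.5 against 13.1, 107, 57.5, 99.0 and 89.6 FPKM (-2.13, and -2.65 without that library). Both genes were named after their values were seen.

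Enzymes along the rest of the pathway followed the same split. Cyp51, lanosterol demethylase, was at 25.3, 37.8, 22.7, 29.9 and 31.9 against 38.2, 254, 115, 221 and 208 FPKM (-2.22, limma adjusted p = 0.00667, and 4.67e-05 without the library labelled Srebf1 KO replicate 1). Idi1, the isopentenyl diphosphate isomerase, was at 4.2, 2.81, 1.59, 5.1 and 3.78 against 6.01, 42.8, 23.1, 26.7 and 30.5 FPKM (-2.42, limma adjusted p = 0.00479, and 0.000205 without). Msmo1, a sterol methyl oxidase, was at 81.7, 98.8, 58.7, 87.8 and 88.3 against 126, 583, 271, 409 and 465 FPKM (-1.99, limma adjusted p = 0.00324, and 7.1e-05 without). The library labelled replicate 1 lay above all Bcl6 KO livers in these 3 genes and below replicates 2 to 5. Among them Srebf1 KO replicate 2 was the highest liver and replicate 3 the lowest of replicates 2 to 5. Ebp, a sterol isomerase, was less far apart (268 to 329 against 360.4 to 471 FPKM, -0.45, limma adjusted p = 0.00861).

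Fdft1, squalene synthase, did not pass over all 10 livers and passed without that library and with all 34 livers in 1 fit (limma adjusted p = 0.00451). It was at 328, 234, 241, 228 and 237 FPKM in Bcl6 KO and 168, 829.6, 558, 815 and 665 FPKM in Srebf1 KO, with the library labelled replicate 1 as the lowest of all 10 (limma adjusted p = 0.0846 with it and 0.000127 without it). The 1 higher member, Tmem97, a sterol-responsive membrane protein named after its values were seen, was at 34.6 to 55.8 against 16.0 to 29.7 FPKM (limma adjusted p = 0.0159).

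Of 13 SREBP regulators, 2 were higher and 1 lower in Bcl6 KO (3 and 1 without the library labelled Srebf1 KO replicate 1). These counts changed with other livers: 1 was higher without Bcl6 KO replicate 3, 4 or 5 or Srebf1 KO replicate 2, 3 or 4, while 0 were lower without Bcl6 KO replicate 3 or 4 or Srebf1 KO replicate 2, 3, 4 or 5, and 2 without Bcl6 KO replicate 5. Without the intensity trend or with a replicate block 1 was higher, and with all 34 livers in 1 fit 2 were lower. Srebf2, which encodes SREBP-2, was at 43.8, 46.0, 35.7, 32.1 and 34.9 against 41.8, 64.8, 66.7, 68.2 and 71.3 FPKM (-0.68, SE 0.17, limma adjusted p = 0.0245, with the controls at 36.3 to 52.1 FPKM), again with the library labelled replicate 1 at the Bcl6 KO level. Without that library the difference was -0.81 (0.00489). The call was lost without Srebf1 KO replicate 2, 3, 4 or 5 or Bcl6 KO replicate 3 or 4 (adjusted p 0.0543 to 0.0594). Scap was higher in Bcl6 KO (243 to 329 against 182 to 204 FPKM, 0.49, limma adjusted p = 0.00886).

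**Figure D4:**
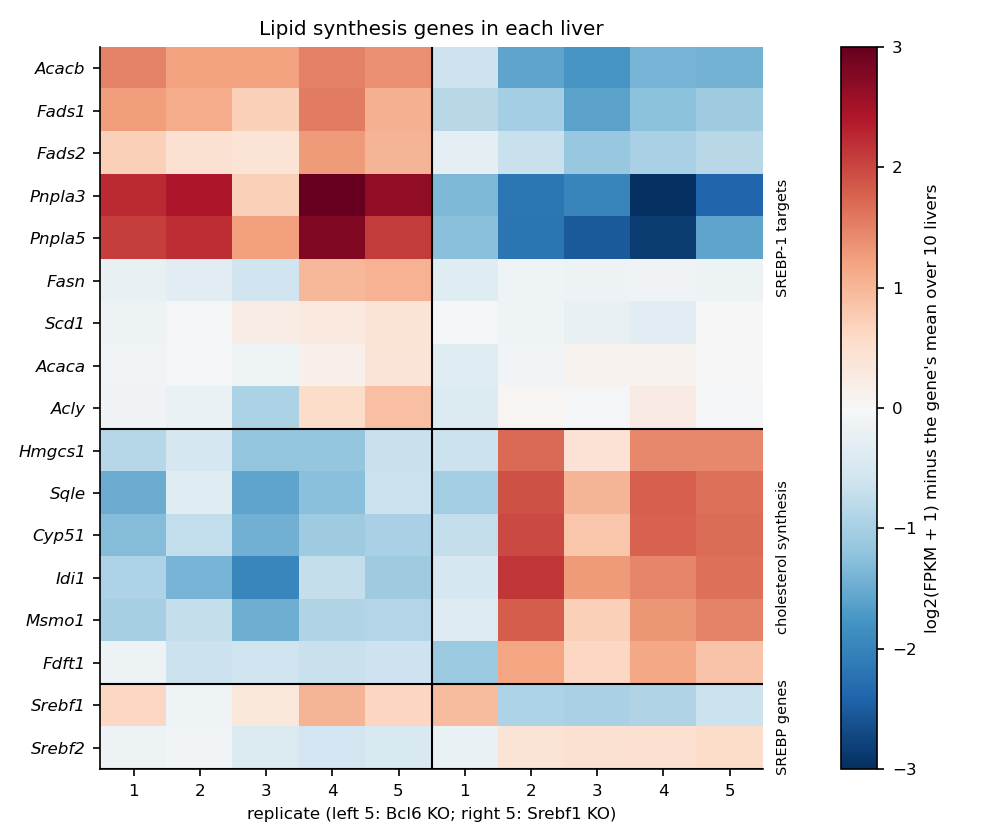
Level of 17 lipid synthesis genes in each liver as log2(FPKM + 1) minus the mean of the gene over 10 livers (colour, red above and blue below), with Bcl6 KO replicates 1 to 5 left of the line and Srebf1 KO replicates 1 to 5 right of it. The library labelled Srebf1 KO replicate 1 has the colours of its group for Acacb to Pnpla5 and those of Bcl6 KO for Hmgcs1 to Fdft1, Srebf1 and Srebf2.

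The promoters of a gene from each direction are shown with a sterol regulatory element, searched as TCACNCCAC, or an E-box, searched as CACGTG, on both strands of the same windows. SREBP proteins are known to bind both kinds of letters.
Hmgcs1, chr13:119690101-119690350, plus strand: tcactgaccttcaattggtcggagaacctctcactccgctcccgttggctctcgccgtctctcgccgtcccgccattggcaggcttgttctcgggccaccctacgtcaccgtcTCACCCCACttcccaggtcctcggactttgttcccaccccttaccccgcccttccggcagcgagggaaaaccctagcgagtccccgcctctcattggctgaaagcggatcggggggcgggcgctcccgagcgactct
Pnpla5, chr15:84123176-84123425, minus strand: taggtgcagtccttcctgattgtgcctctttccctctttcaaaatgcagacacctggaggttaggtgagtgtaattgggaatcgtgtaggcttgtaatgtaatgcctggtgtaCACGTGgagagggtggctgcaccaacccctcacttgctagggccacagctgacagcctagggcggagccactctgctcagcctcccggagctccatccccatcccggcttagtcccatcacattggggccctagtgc
In each gene the capitals begin 137 bases before the start. TCACNCCAC was found in 1.24% of all windows and 1.53% of genes tested with a window, in 1 of 19 cholesterol synthesis genes with a window (Hmgcs1) and in 1 of 24 SREBP-1 targets. CACGTG was found in 7.15% of all windows and 10.9% of genes tested with a window, in 4 of 19 cholesterol synthesis genes and in 4 of 24 SREBP-1 targets, Pnpla5 among them. Neither of these windows held the other motif.

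Triglyceride synthesis enzymes were lower in Bcl6 KO in 4 of 16 cases and higher in none (2 at an unadjusted p under 0.05), and in 3 and 0 without the library labelled Srebf1 KO replicate 1. Without Bcl6 KO replicate 2, or under quantile normalization, there was 1 higher. Gpd1, which makes glycerol 3-phosphate, was at 186, 197, 202, 188 and 246 against 443, 444, 601, 477 and 543 FPKM (-1.29, SE 0.11, limma adjusted p = 2.13e-05, and -1.33 without that library, with the controls at 253 to 421 FPKM). Gpat4, the acyltransferase of the first step, was at 137 to 223 against 268 to 368 FPKM (-0.92, limma adjusted p = 0.00149). Mogat1, a monoacylglycerol acyltransferase, was at 5.43 to 28.3 against 32.0 to 89.1 FPKM (-2.02, limma adjusted p = 0.0067).

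Lipid droplet and steatosis genes were lower in Bcl6 KO in 9 of 24 cases and higher in 1, with and without the library labelled Srebf1 KO replicate 1 (median log2 difference -0.48 and -0.56). Without Bcl6 KO replicate 5 there were 2 higher. Cidea, a droplet fusion protein that is induced in fatty liver, was at 0, 0.988, 0, 0 and 23.4 against 50.8, 50.4, 47.8, 24.0 and 33.1 FPKM (-4.22, SE 0.77, limma adjusted p = 0.00466, and -4.14 without that library, with the controls at 4.43 to 67.8 FPKM). In Bcl6 KO only replicate 5 reached 1 FPKM, so Cidea passed the filter through Srebf1 KO and its p-value is a description. Its relative Cidec, named after its values were seen, was at 27.0, 68.9, 175, 38.7 and 164 against 250, 315, 493, 406 and 391 FPKM (-2.29, SE 0.46, limma adjusted p = 0.00857, and -2.42 without that library). Bcl6 KO replicate 5 had the highest Cidea, and replicates 3 and 5 the highest Cidec, of their group, without reaching the Srebf1 KO livers. The controls, at 338 to 745 FPKM, overlapped the Srebf1 KO range of Cidec and lay above all Bcl6 KO livers.

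The droplet-bound dehydrogenase Hsd17b11 was likewise lower (146 to 248 against 291 to 367 FPKM, -0.86, limma adjusted p = 0.00258). Cd36, the fatty acid transporter, was the higher member, at 3627, 3435, 5084, 3946 and 4796 against 2526, 2554, 2519, 2202 and 2637 FPKM (0.73, SE 0.12, limma adjusted p = 0.00214, and 0.74 without that library, with the controls at 2237 to 3270.1 FPKM). The droplet coat genes did not pass over all 10 livers. Plin2 was at 1175 to 1648 against 1458 to 2322 FPKM (limma adjusted p = 0.0808, and 0.0298 without the library labelled Srebf1 KO replicate 1), and Plin5 at 237 to 441 against 200.2 to 323 FPKM.

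**Figure D5:**
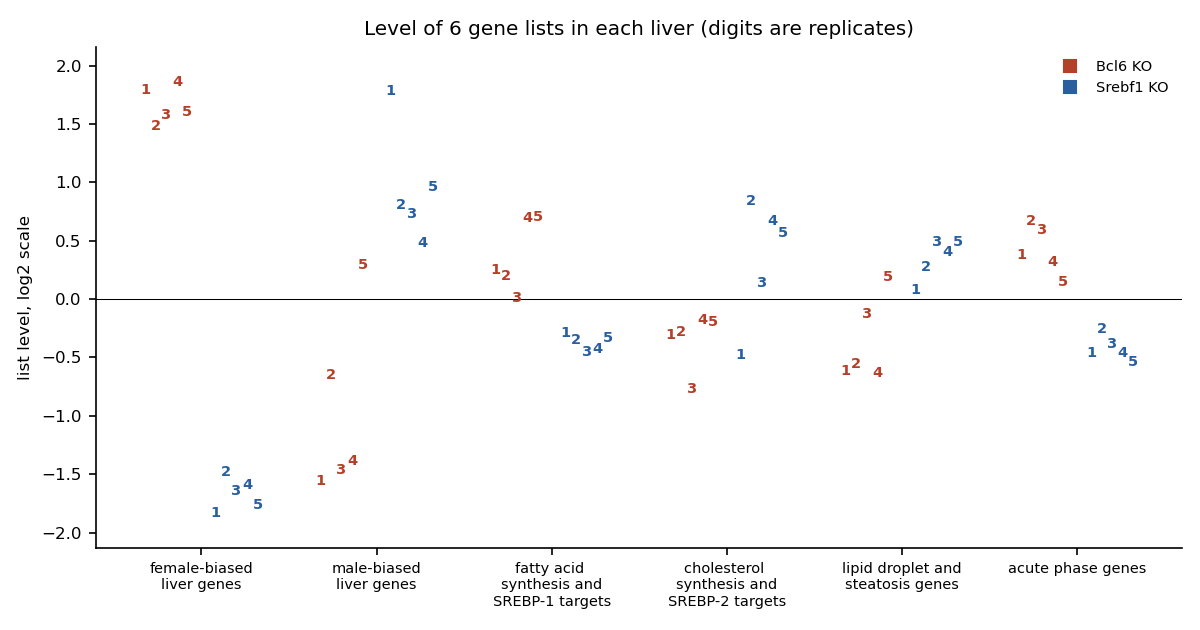
Level of 6 gene lists in each liver, as the mean over the tested members of log2(FPKM + 1) minus the mean of the gene over 10 livers (vertical axis); red digits are Bcl6 KO and blue digits Srebf1 KO replicates. The cholesterol level of the library labelled Srebf1 KO replicate 1 is -0.48, within the Bcl6 KO range of -0.773 to -0.176, and the male-biased level of Bcl6 KO replicate 5 is 0.294, against -1.561 to -0.654 in the other 4.

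Fatty acid oxidation and PPAR-alpha target genes were split, with 6 of 35 higher and 9 lower (7 and 8 when the library labelled Srebf1 KO replicate 1 was left out), and with 5 lower without the intensity trend. The acyl-CoA thioesterases Acot3, at 137 to 419.7 against 15.5 to 38.5 FPKM (3.13, limma adjusted p = 7.15e-05), and Acot4, at 77.0 to 178 against 36.2 to 52.8 FPKM (1.42, limma adjusted p = 0.00087), were higher. Cyp4a31, an omega-hydroxylase gene, was at 60.6 to 135 against 2.92 to 21.4 FPKM (limma adjusted p = 0.00106). Among the lower members, Bdh1, the dehydrogenase that interconverts the ketone bodies acetoacetate and hydroxybutyrate, was at 465 to 651 against 749.9 to 830.3 FPKM (-0.48, limma adjusted p = 0.00889). Acaa2, the mitochondrial thiolase of beta-oxidation, was at 654 to 920 against 977 to 1068 FPKM (-0.44, limma adjusted p = 0.013). Bdh1 and Acaa2 were named after their values were seen.

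Of 31 apolipoprotein and lipoprotein genes, 7 were higher and 4 lower (8 and 5 when the library labelled Srebf1 KO replicate 1 was left out). The lower ones numbered 7 without Bcl6 KO replicate 5. Pltp, the phospholipid transfer protein, was at 107, 106, 116, 129 and 101 against 34.3, 34.4, 33.3, 31.8 and 43.8 FPKM (1.63, SE 0.12, limma adjusted p = 5.52e-06, and 1.62 without that library, with the controls at 47.8 to 93.7 FPKM), and Apobec1, the enzyme that edits apolipoprotein B mRNA, at 124 to 212 against 73.9 to 86.2 FPKM (0.91, limma adjusted p = 0.00133). Both secreted lipases were lower. Lipg, endothelial lipase, was at 20.6, 33.3, 18.9, 18.9 and 45.4 against 107, 109, 107, 104 and 89.3 FPKM (-1.96, SE 0.23, limma adjusted p = 0.000233, and -1.95 without that library, with the controls at 38.5 to 146 FPKM), and Lipc, hepatic lipase, at 223 to 432 against 538 to 896 FPKM (-1.16, limma adjusted p = 0.00241).

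Bile acid synthesis and transport genes were more often lower, 11 of 30 against 5 higher, with the same counts without the library labelled Srebf1 KO replicate 1 (median log2 difference -0.36 and -0.27). Scp2, the sterol carrier and peroxisomal thiolase of side-chain shortening, was at 2029, 2505, 2645, 1721 and 3410.2 against 6307, 5304, 5496, 5126 and 6031 FPKM (-1.23, SE 0.16, limma adjusted p = 0.000494, and -1.19 without that library, with the controls at 3816 to 6319 FPKM). Abcb4, which exports phosphatidylcholine into bile, was at 1068 to 1789 against 2383 to 2966 FPKM (-1.01, limma adjusted p = 0.000563), and the uptake transporter Slco1b2 at 3660.4 to 4852 against 5753 to 8164 FPKM (-0.81, limma adjusted p = 0.00103). Abcc4, an efflux pump of the blood side, was higher (57.6 to 99.8 against 20.2 to 38.4 FPKM, 1.38, limma adjusted p = 0.00108).

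In insulin signalling and glucose metabolism 7 of 30 genes were lower and 1 higher (6 and 1 without that library). The higher ones numbered 2 without Bcl6 KO replicate 5 or Srebf1 KO replicate 3 or 4, and 3 with an FPKM of 1 required in all 10 libraries. They numbered 2 with a pseudocount of 0.1, quantile normalization, all 34 livers in 1 fit or no intensity trend. Pck1, the rate-limiting enzyme of gluconeogenesis, was at 3244, 3272, 2310.4, 2464 and 3094 against 5066, 5142, 5389.5, 6424 and 4233 FPKM (-0.87, SE 0.13, limma adjusted p = 0.00171, and -0.88 without that library, with the controls at 1926 to 4306 FPKM), and Pcx, pyruvate carboxylase, at 545 to 809 against 967 to 1247 FPKM (-0.68, limma adjusted p = 0.00253). Pygl, liver glycogen phosphorylase, was at 232 to 337 against 432 to 512 FPKM (-0.71, limma adjusted p = 0.00137). Pfkfb3, which makes the glycolytic activator fructose 2,6-bisphosphate, was at 156 to 235 against 329.8 to 815 FPKM (-1.35, limma adjusted p = 0.00199), so that these 3 genes of glucose output and this regulator of glycolysis were all lower in Bcl6 KO.

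Genes of secreted plasma proteins were higher in Bcl6 KO, 14 of 23 with none lower (1 at an unadjusted p under 0.05), with and without the library labelled Srebf1 KO replicate 1 (median log2 difference 0.53 and 0.51), and 1 lower under quantile normalization. Alb, albumin, was at 155440, 145820, 103330, 150800 and 101950 FPKM in Bcl6 KO and 59879, 58285, 50789, 65570 and 54411 FPKM in Srebf1 KO (1.17, SE 0.16, limma adjusted p = 0.000874, and 1.18 without that library, with the controls at 36633 to 51926 FPKM). Trf, transferrin, was at 15898 to 21223 against 7952 to 8511 FPKM (1.24, limma adjusted p = 1.01e-05). The summed FPKM of 5 hepatocyte markers, which includes Alb and Trf, was 138000 to 195000 in Bcl6 KO and 78200 to 96800 in Srebf1 KO, whereas another of these markers, Ttr, stood at 8296 to 11690 against 11770 to 12710 FPKM.

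Acute phase genes were higher in 15 of 29 cases and lower in none (2 at an unadjusted p under 0.05), with and without that library (median log2 difference 0.62 and 0.60). Without Bcl6 KO replicate 2 there was 1 lower. Hamp2, a hepcidin gene, was at 21910, 7017, 8354, 21111 and 12444 against 318, 198, 106, 143 and 66.5 FPKM (6.45, SE 0.42, limma adjusted p = 2.11e-06, and 6.73 without that library, with the controls at 71.5 to 711 FPKM). Cp, ceruloplasmin, was at 19463 to 32229 against 7529 to 10562 FPKM (1.52, limma adjusted p = 4.85e-05), Itih4, an inter-alpha-trypsin inhibitor chain, at 14505 to 25471 against 3466 to 6188 FPKM (2.04, limma adjusted p = 6.16e-05), and Fgl1, a fibrinogen-like hepatokine, at 773 to 1652 against 256 to 452 FPKM (1.65, limma adjusted p = 0.000255). The groups did not overlap in these 4 genes. Cp and Itih4 are counted in both lists.

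Serpins were divided, with 7 of 24 higher and 6 lower, the same without the library labelled Srebf1 KO replicate 1. Serpina6, which encodes corticosteroid-binding globulin, was at 15996, 13597, 7949.7, 18748 and 7995 FPKM in Bcl6 KO and 269, 289.8, 254, 260.1 and 263 FPKM in Srebf1 KO (5.50, SE 0.22, limma adjusted p = 1.75e-08, and 5.50 without that library), with 196 to 314 FPKM in the controls. Serpina10, an inhibitor of coagulation factor X, was at 962 to 1822 against 408 to 643 FPKM (1.45, limma adjusted p = 0.000294). Serpina3k, the kallikrein-binding protein, was lower, at 365, 669, 276, 280.2 and 1415 against 5134, 2748, 2869.8, 2682 and 2842 FPKM (-2.70, SE 0.40, limma adjusted p = 0.00132, and -2.52 without that library, with the controls at 1395 to 4056 FPKM). Serpina3 genes form a cluster of close copies, so the value of Serpina3k is uncertain.

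Coagulation genes were higher in 7 of 28 cases and lower in 1, the same without the library labelled Srebf1 KO replicate 1. F7, the starter of the extrinsic pathway, was at 347, 277, 171, 350.3 and 168 against 96.8, 82.9, 80.4, 52.7 and 74.7 FPKM (1.70, limma adjusted p = 0.000879), and F10 at 1908 to 2990 against 1024 to 1721 FPKM (0.90, limma adjusted p = 0.0031). Complement components were split, 8 of 34 higher and 8 lower (5 and 7 without that library). The higher ones also numbered 5 without Bcl6 KO replicate 2, 3 or 4 or Srebf1 KO replicate 3 or 4, and 3 without Bcl6 KO replicate 1. They were 5 with all 34 livers in 1 fit or a replicate block and 3 without the intensity trend. Of the terminal components C8a, above, and C6, at 86.6 to 211 against 304 to 541 FPKM (-1.55, limma adjusted p = 0.00167), were lower, as was the lectin Mbl1 (283 to 376 against 663 to 751 FPKM, -1.07, limma adjusted p = 1.85e-05).

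Cfd, the complement protease adipsin, had the lowest difference of the naming rule. It was at 0.789, 7.46, 0, 0 and 9.69 FPKM in Bcl6 KO and 105, 149, 138, 145 and 51.8 FPKM in Srebf1 KO (-5.33, SE 0.66, limma adjusted p = 0.000385, and -5.35 without that library). In Bcl6 KO only replicates 2 and 5 reached 1 FPKM, so Cfd passed the filter through Srebf1 KO and its p-value is a description. The controls, at 0 to 21.2 FPKM, lay below every Srebf1 KO liver. Cfd is best known from fat cells. The 1 fat marker examined, Adipoq, was at most 0.623 FPKM in Bcl6 KO and 0.286 in Srebf1 KO. The source of the Cfd signal was not tested.

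Among xenobiotic P450 and reductase genes 18 of 47 were higher and 12 lower (16 and 11 without the library labelled Srebf1 KO replicate 1), many of them the sex-biased genes above. With an FPKM of 1 required in all 10 libraries 11 were higher. Sulfotransferase and flavin monooxygenase genes were higher in 12 of 21 cases and lower in 2, the same without that library, but 6 were higher with an FPKM of 1 required in all 10 libraries. Sult2a2 was at 90.2, 35.7, 62.3, 123 and 64.1 FPKM in Bcl6 KO, Sult2a3 at 9.83 to 25.8 and Sult4a1, a sulfotransferase better known from brain, at 10.6 to 44.1. All 3 were listed at 0 in every Srebf1 KO liver and passed the filter through Bcl6 KO alone, so no p-value is given for them. Of 20 organic ion carriers 5 were higher and 5 lower, 4 and 4 when the library labelled Srebf1 KO replicate 1 was left out. The lower ones numbered 3 without Bcl6 KO replicate 3 or 4 or Srebf1 KO replicate 2 or 5, and 2 or 3 with no filter, quantile normalization, no intensity trend or a replicate block, which also left 3 higher.

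Among 27 hepatocyte transcription factor genes 3 were higher and 5 lower (3 and 4 when the library labelled Srebf1 KO replicate 1 was left out). The lower ones numbered 3 without any of Bcl6 KO replicates 1 to 4 or Srebf1 KO replicate 2, and 2 without Srebf1 KO replicate 3 or 4. They were 2 or 3 with no filter, no intensity trend or a replicate block. Esr1, the oestrogen receptor, was at 816, 505, 735, 884 and 767 against 164, 294, 235, 176 and 214 FPKM (1.78, SE 0.18, limma adjusted p = 7.15e-05, and 1.69 without that library, with the controls at 134 to 423 FPKM), and Onecut2 at 128 to 163 against 84.7 to 106 FPKM (0.62, limma adjusted p = 0.00444). Nr0b2, the bile acid-induced repressor SHP, was lower (10.9 to 35.0 against 42.2 to 54.2 FPKM, -1.43, limma adjusted p = 0.00444).

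Of 29 genes reported elsewhere as bound or repressed by BCL6, 7 were higher and 1 lower (5 and 0 when the library labelled Srebf1 KO replicate 1 was left out). The higher ones numbered 4 without Bcl6 KO replicate 1 or Srebf1 KO replicate 2, 3 or 4, and 3 without Bcl6 KO replicate 3, and 4 with all 34 livers in 1 fit. The 1 lower call was lost without any of Bcl6 KO replicates 1 to 4 or Srebf1 KO replicates 1 to 4. Besides Socs2, above, they held Ccnd1, cyclin D1, at 175, 131, 168, 165 and 201 against 62.2, 64.0, 77.2, 63.8 and 94.3 FPKM (1.21, SE 0.15, limma adjusted p = 0.000309, and 1.16 without that library, with the controls at 106 to 204 FPKM), and Id2, an inhibitor of DNA binding, at 123 to 203 against 65.0 to 121 FPKM (0.82, limma adjusted p = 0.0163). The other 21 did not pass, so most of this list did not differ detectably in these livers.

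Zonation genes showed no common direction. Of 25 periportal genes 5 were higher and 3 lower, the same when the library labelled Srebf1 KO replicate 1 was left out. The higher ones numbered 2 or 3 without Bcl6 KO replicate 4 or 5 or Srebf1 KO replicate 3 or 4, and the lower ones 5 without Bcl6 KO replicate 3. Without the intensity trend 2 were higher. Aldh1b1, a mitochondrial aldehyde dehydrogenase, was at 132 to 165 against 55.7 to 83.8 FPKM (1.06, limma adjusted p = 0.000333). Of 22 pericentral genes 2 were higher and 5 lower, the same without that library, and 8 were lower without Bcl6 KO replicate 5. With all 34 livers in 1 fit 1 was higher. Cyp2e1, the ethanol-inducible P450, was at 2241, 2521, 1645, 2134 and 3457 against 6939, 5051, 5405, 4338 and 5084 FPKM (-1.19, SE 0.18, limma adjusted p = 0.00158, and -1.09 without that library, with the controls at 1737 to 5548 FPKM), and the Wnt receptor gene Lgr5 at 0.42 to 2.33 against 4.46 to 6.88 FPKM (-1.52, limma adjusted p = 0.0073).

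Endothelial cell genes were higher in Bcl6 KO, in 11 of 23 cases with none lower, 1 at an unadjusted p under 0.05 (10 without the library labelled Srebf1 KO replicate 1, 7 without Bcl6 KO replicate 1). Stab2, a scavenger receptor of these cells, was at 68.4, 66.6, 65.2, 61.4 and 58.3 against 44.9, 42.4, 40.6, 36.5 and 41.6 FPKM (0.62, SE 0.11, limma adjusted p = 0.00342, and 0.65 without that library, with the controls at 38.1 to 56.2 FPKM), and the angiopoietin receptor Tek at 66.3 to 75.5 against 42.2 to 54.8 FPKM (0.61, limma adjusted p = 0.00472). Fcgr2b was at 107 to 143 against 47.2 to 99.6 and Gpr182 at 28.7 to 44.1 against 17.4 to 23.9 FPKM (limma adjusted p = 0.00798 and 0.0092). The summed FPKM of 5 endothelial markers was 620 to 733 in Bcl6 KO and 422 to 546 in Srebf1 KO. It moved with the group as the plasma protein genes did, and its part in the other differences was not tested.

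Kupffer cell genes were higher in 5 of 18 cases and lower in none (also at an unadjusted p under 0.05), but in 2 when the library labelled Srebf1 KO replicate 1 was left out. The number was likewise 2 or 3 without any of Bcl6 KO replicates 1 to 4 or Srebf1 KO replicates 2 to 4, and with no filter, all 34 livers in 1 fit or no intensity trend. Slc40a1, the iron exporter ferroportin, was at 347 to 654 against 243 to 347 FPKM (0.67, limma adjusted p = 0.019), and the mannose receptor Mrc1, which endothelial cells express too, at 84.5 to 122 against 62.0 to 77.0 FPKM (0.53, limma adjusted p = 0.0143). The 5 defining Kupffer markers summed to 422 to 1100 FPKM in Bcl6 KO and 333 to 581 in Srebf1 KO, and the ranges overlapped.

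Genes of lipid-associated macrophages were higher in 4 of 18 cases, with and without that library. Fabp5, a fatty acid-binding protein, was at 158, 207, 127, 230 and 110 against 25.0, 21.8, 13.4, 5.88 and 14.2 FPKM (3.38, SE 0.33, limma adjusted p = 6.32e-05, and 3.56 without that library, with the controls at 24.8 to 112 FPKM), and the tetraspanin Cd9 at 53.9 to 114 against 11.8 to 39.9 FPKM (2.16, limma adjusted p = 0.00119). The defining markers Trem2, Gpnmb, Itgax and Ccr2 together were at 37.0 to 140 against 17.9 to 61.0 FPKM, with overlap. Among 15 chemokines 3 were higher, the same without the library labelled Srebf1 KO replicate 1, and Ccl9 led them (170, 149, 156, 169 and 149 against 46.1, 42.5, 30.0, 26.4 and 40.3 FPKM, 2.09, limma adjusted p = 5.26e-06).

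Stellate cell and matrix genes hardly differed, with 2 of 38 higher and none lower (1 at an unadjusted p under 0.05), a share near the 5.01% of all genes. The count was 2 without the library labelled Srebf1 KO replicate 1 and 1 without Bcl6 KO replicate 2, 3, 4 or 5 or Srebf1 KO replicate 2 or 4. It was 1 under 5 other settings, and 1 was lower under 3. Mmp14, a membrane-bound collagenase, was at 99.4 to 141 against 51.0 to 85.8 FPKM (0.97, limma adjusted p = 0.00302). The 5 stellate markers summed to 127 to 187 and 131 to 201 FPKM. Among 20 cholangiocyte genes 3 were higher and 2 lower (3 and 3 without that library), with a median log2 difference of -0.12. There was 1 lower with a pseudocount of 0.1, with an FPKM of 1 required in all 10 libraries or with all 34 livers in 1 fit. The higher ones were led by Prom1, the progenitor marker CD133, at 413, 352, 639, 729.5 and 263 against 47.6, 49.0, 15.2, 51.0 and 60.7 FPKM (3.42, SE 0.37, limma adjusted p = 0.00013, and 3.48 without that library, with the controls at 34.2 to 369 FPKM). The defining cholangiocyte markers did not share this direction. Together they reached at most 28.5 FPKM in Bcl6 KO and 41.9 FPKM in Srebf1 KO, and the ranges overlapped. No lymphocyte or neutrophil gene passed, 0 of 16 by limma with or without that library (1 at an unadjusted p under 0.05), and 1 of 12 MHC class II and dendritic cell genes was higher (0 without any 1 of the 10 livers other than Srebf1 KO replicate 3, and 0 with no filter, median scaling or no intensity trend).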

How the data were processed

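RNA of 34 mouse livers was sequenced, and the 10 libraries labelled Bcl6 KO and Srebf1 KO are compared here, with the sgGFP and sgLacZ control livers (6) used for levels only. Per the labels, liver RNA was taken up in TRIzol, cleaned with an RNeasy kit and made into libraries by a stranded SMARTer kit. The authors deposited 1 table of FPKM values by gene symbol. FeatureCounts 1.6.4 and the builds mm10 and GRCh38 are named in the submitters' processing notes, with no role stated for each build. Which aligner, annotation and strand setting made the table is not given in the sources here. The scale of reads per library was estimated from the steps between low FPKM values of genes with an annotated length. It is implied and not stated, and is not the number of counted reads. The FPKM table keeps no read counts, and a gene listed at 0 may be below detection.

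Values were analysed as log2(FPKM + 1) with limma 3.58.1 in R 4.3.3 (2 groups of 5, empirical Bayes with an intensity trend, two-sided, Benjamini-Hochberg over 16720 genes, threshold 0.05). The labels number the livers but do not say that each came from its own mouse, so p-values measure the spread between these samples. On simulated data for this comparison over 16720 genes, 74% of 100 genes changed by 1 and 98% of 100 changed by 2 on the log2 scale were recovered, with 7 false calls. Values were drawn as independent and normal, and the changed genes only from those of higher mean level. Recovery of low genes was not tried.

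The groups compared, the 44 gene lists and the naming rule were chosen with earlier results of these data known. The rule took the targeted genes, the 10 highest and 10 lowest called differences without overlap between the groups (unnamed loci left out), up to 4 called members of each list by smallest adjusted p, and members of 4 lists that did not pass. With the 10 genes named after their values were seen this gave 159, apart from members that did not pass, and the text names a part of them. Some genes given by the rule are not reported here. Lists are described by counts and medians without a set test. Alternatives were a pseudocount of 0.1, 2 other filters, median scaling, quantile normalization, all 34 livers in 1 fit, no intensity trend, a replicate block and leaving out each liver. Coordinates are from GENCODE M21 (GRCm38) and promoter sequences from RefSeq (GRCm38.p6), where 12103 of 16720 tested symbols had a window.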

Additional observations from a re-analysis of the deposited data

Results flagged for a closer look

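In groups of 5, a liver was singled out when its gap to the nearest of the other 4, on the log2(FPKM + 1) scale, took more than 0.71 of the range of the group. Chance singles out about 1 in 20 groups, and 2 groups were examined for each named gene. The cases below come to a share of groups near that, so a single case is no more than a description. The library labelled Srebf1 KO replicate 1 was singled out most often. In it Srebf1 was at 1908 FPKM against 499 to 632 in the other 4 livers of its group, Serpina3k at 5134 against 2682 to 2870 and Igfbp2 at 321 against 94.7 to 127. It was lowest for Fdft1, at 168 FPKM against 558 to 830, for Srebf2, at 41.8 against 64.8 to 71.3, and for Fasn, at 338 against 396 to 405.

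Bcl6 KO replicate 5 was highest for Cidea, at 23.4 FPKM against 0 to 0.988 in the other 4 Bcl6 KO livers, for Cyp2f2, at 290 against 120 to 141, and for Mup1, at 135 against 1.18 to 5.16. Bcl6 KO replicate 1 was highest for Fdft1, at 328 FPKM against 228 to 241.

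The remaining cases were in Srebf1 KO. In replicate 3, Eci3 was at 1.88 FPKM with 0 in the others, and Prom1 at 15.2 against 47.6 to 60.7. In replicate 2, Bdh1 was at 750 FPKM against 806 to 830. In replicate 4, Cd36 was at 2202 FPKM against 2519 to 2637. In replicate 5, Pltp was at 43.8 FPKM against 31.8 to 34.4, and Lipg at 89.3 against 104 to 109.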

How the results depend on the processing

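The count of genes higher in Bcl6 KO was 838 and ranged from 652 to 807 when 1 liver was left out. The count of genes lower was 865 and ranged from 607 to 847. Under the other settings these counts were 666 to 884 and 578 to 983, within 1.5 times of the reported ones, and the share of higher calls was 45.2% to 55.4%. Median scaling gave 815 and 873 calls. Srebf1 mRNA did not pass over the 10 livers (log2 difference 0.99) and passed with all 34 livers in 1 fit (0.99, limma adjusted p = 0.0158), where the spread is shared by all groups. With 1 liver left out its difference was 0.86 to 1.35, and 1.35, without the library labelled Srebf1 KO replicate 1, passed. Bcl6 mRNA passed in none of these settings, at -0.31 to 0.08. Of 107 named genes called, 102 were called in every setting that gave a value, and the 5 others were Aacs, Srebf2, Slc40a1, Gna14 and Igfbp2. Most named genes were chosen for a small adjusted p or a large difference, which favours such stability. Of all 1703 calls, 1027 held whichever 1 liver was left out. No called difference of a named gene turned its sign in any setting.

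The replicate numbers did not pair the livers: the correlation of deviations between same-numbered livers was -0.045 to 0.03. A replicate block gave 666 higher and 588 lower genes and ended the calls of Aacs, Srebf2, Slc40a1 and Gna14 (limma adjusted p from 0.053 to 0.0956). Low genes rest on few steps of the FPKM scale and have wide errors.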

Other observations

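Some genes of protein folding and respiration were lower in Bcl6 KO. Of 30 genes of the unfolded protein and integrated stress response, 6 were lower and none higher (1 at an unadjusted p under 0.05), against 5.17% of all genes, and 4 were lower when the library labelled Srebf1 KO replicate 1 was left out. The chaperone Canx, calnexin, was at 1460 ± 82.5 against 2010 ± 120 FPKM (SD, n = 5 per group, log2 difference -0.46, limma adjusted p = 0.00254), and the disulfide isomerase Pdia4 at 474 ± 73.2 against 757 ± 93.5 FPKM (-0.68, limma adjusted p = 0.00536). The count was 2 or 3 without Bcl6 KO replicate 3 or 4 or Srebf1 KO replicate 3, 4 or 5, and also under quantile normalization, without the intensity trend or with a replicate block. Of 32 subunits of oxidative phosphorylation, 7 were lower and none higher, also at an unadjusted p under 0.05, and 6 were lower without that library. Uqcrc1, of complex III, was at 266 to 328 against 386 to 455 FPKM, and Atp5a1, of the ATP synthase, at 562 to 755 against 853 to 961 FPKM. That count was 3 or 4 without Bcl6 KO replicate 1, 2 or 3 or Srebf1 KO replicate 2 or 4, and under the same 3 settings.

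Among 18 imprinted and fetal liver genes, 3 were higher in Bcl6 KO and none lower (2 at an unadjusted p under 0.05), the same without the library labelled Srebf1 KO replicate 1. Peg3, an imprinted zinc finger gene, was at 711, 547, 272, 410 and 185 FPKM in Bcl6 KO and at 22.0, 32.6, 22.5, 39.1 and 30.9 FPKM in Srebf1 KO (log2 difference 3.68, SE 0.32, limma adjusted p = 2.13e-05, and 3.59 without that library), with 24.9 to 46.1 FPKM in the controls. Of 21 p53 targets 2 were higher and none lower (1 at an unadjusted p under 0.05), the same without that library and with 1 higher in a fit of all 34 livers, led by the kinase gene Plk2 at 43.4 to 70.7 against 13.6 to 23.0 FPKM (1.57, limma adjusted p = 0.000253). Of 27 cell cycle genes 2 were higher and none lower (also at an unadjusted p under 0.05), the same without that library. In this list 1 was higher with all 34 livers in 1 fit, with no intensity trend, or without Bcl6 KO replicate 1, 3 or 4 or Srebf1 KO replicate 2, 3 or 5. Over all genes tested 5.01% were higher, and the p53 and cell cycle counts are too small to stand apart from that share.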
